A study of Mus musculus with 12 samples.

Results

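The classical cadherins are cell-surface proteins that bind like cadherins on neighbouring cells in the presence of calcium and join the actin cytoskeleton through catenins. 8 of these genes were taken by gene symbol: Cdh1, Cdh2, Cdh3, Cdh4, Cdh6, Cdh8, Cdh11 and Cdh20. Each was represented by 1 probe set, so 8 of 8 were measured among 18784 named genes. Cdh20 lay near the floor, yet all 8 passed a filter for levels above the pooled lower quartile on at least 3 of 12 arrays. Their levels were compared across 4 groups of 3 arrays each, made from mouse embryonic stem cells (ESC) of the feeder-independent line E14TG2a.4 grown with LIF. The groups were neural progenitor cells (NPC) with an shRNA against Jarid1b, NPC with a scrambled shRNA, ESC with the Jarid1b shRNA, and ESC with the scrambled shRNA. All 12 arrays therefore came from cells that had received a lentiviral shRNA vector, with puromycin selection, and the NPC were made by a published differentiation protocol. A single Jarid1b construct is named in the labels. Whether the 3 arrays of a group stand for independent cultures is not stated, and p-values therefore reflect the spread between arrays, which may be technical. In the text below, knockdown cells carry the Jarid1b shRNA and control cells the scrambled one.

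In the early embryo, E-cadherin (Cdh1) holds the epiblast together as an epithelium. When the neural plate forms, its cells lose E-cadherin and gain N-cadherin (Cdh2), which is known as the cadherin switch. E-cadherin, N-cadherin, P-cadherin (Cdh3) and R-cadherin (Cdh4) are type I classical cadherins, whereas Cdh6, Cdh8, Cdh11 and Cdh20 encode type II cadherins, several of which mark separate regions of the developing brain. Snail, Zeb and Twist factors are known repressors of Cdh1 in other settings and act through E-box sequences.

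All levels below are log2 intensities normalized by the submitters. They compare groups for the same gene and are not set against the level of another gene, because probes differ in brightness. Array medians lay between 7.70 and 7.79 and lower quartiles between 5.84 and 6.11, and arrays of the same group correlated at 0.992 to 0.997 across genes. The targeted gene, listed as Kdm5b, averaged 10.47 ± 0.081 in knockdown NPC and 11.23 ± 0.078 in control NPC (SD, n = 3 each), a change of -0.76 ± 0.11 (SE, adjusted p = 0.00524). In ESC it averaged 10.68 ± 0.20 with the knockdown and 12.41 ± 0.14 with the control shRNA, a change of -1.73 ± 0.11 (adjusted p = 1.82e-05). The labelled cell types were checked against marker lists: all 10 pluripotency genes were lower and all 10 radial glia genes higher in NPC than in ESC, in both knockdown and control cells. Neuronal markers were also present in the NPC arrays, whose mean over 10 genes was 9.83 to 9.92 in knockdown NPC and 9.95 to 10.13 in control NPC, against 7.97 to 8.18 in knockdown ESC and 8.18 to 8.26 in control ESC. Of these 10 genes 9 were higher and 1 lower in NPC, in both knockdown and control cells. Over all genes 23.8% were higher in knockdown cells and 23.5% in control cells. In bulk RNA, fewer cells of a type and less RNA per cell cannot be told apart.

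The first comparison asked how cadherin levels differed between NPC and the ESC they were made from. Cdh1 and Cdh3 fell, and Cdh2, Cdh4, Cdh6, Cdh8 and Cdh11 rose, in control cells and again in knockdown cells. Cdh20 did not pass the test in either. In control cells 7 of 8 members were called at an adjusted p under 0.05, 5 higher and 2 lower, where 48.6% of all genes were called, with 23.5% higher and 25.1% lower. In knockdown cells the member counts were the same, where 48.8% of all genes were called, with 23.8% higher and 25% lower. The median size of the change over the 8 members, regardless of sign, was 2.84 in control cells and 2.90 in knockdown cells, whereas over all genes it was 0.281 in control cells and 0.292 in knockdown cells. In both comparisons the groups of 7 members did not overlap, which held for 52.3% of all genes in control cells and 62.4% in knockdown cells. Leaving out any single array kept those 7 members called in both comparisons.

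Cdh1, the cadherin of epithelia and of pluripotent cells, read 10.24, 9.99 and 9.86 in knockdown NPC and 9.37, 9.99 and 9.47 in control NPC. Its ESC values were 12.32, 12.25 and 12.19 with the knockdown and 12.18, 12.11 and 12.13 with the control shRNA. Every NPC array lay below every ESC array, and the spread was wider in NPC. Cdh1 was 5.78-fold lower in control NPC than in control ESC, with a log2 change of -2.53 ± 0.14 (SE, adjusted p = 9.65e-09). In knockdown cells the change was -2.22 ± 0.14 (4.67-fold, adjusted p = 3.43e-08). Its NPC levels stayed above the arrays' lower quartiles. They lay near or above the upper quartiles of the NPC arrays, which were 9.57 to 9.66. Cdh3, P-cadherin, which is found in the placenta and in epithelial basal layers, read 8.78, 8.50 and 8.35 in knockdown NPC and 8.30, 8.76 and 8.91 in control NPC. In ESC it read 10.72, 10.43 and 10.24 with the knockdown and 10.52, 10.32 and 10.56 with the control shRNA. Cdh3 therefore separated by cell state in the same direction as Cdh1, with a change of -1.81 ± 0.17 in control cells (adjusted p = 8.95e-07) and -1.92 ± 0.17 in knockdown cells (adjusted p = 5.49e-07).

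Cdh2, N-cadherin, which joins neuroepithelial cells at their apical junctions, read 11.94, 12.10 and 12.11 in knockdown NPC and 12.14, 12.31 and 12.06 in control NPC. Knockdown ESC gave 8.09, 8.14 and 7.85 and control ESC 8.90, 8.97 and 9.19. The NPC arrays were high in both shRNA groups and overlapped, while the ESC arrays were low and fell into separate ranges by shRNA. Cdh2 was 8.89-fold higher in control NPC than in control ESC (log2 change 3.15 ± 0.11, adjusted p = 1.19e-10). In knockdown cells it was 16.3-fold higher (4.02 ± 0.11, adjusted p = 1.81e-11). Cdh4, R-cadherin, a type I cadherin of brain and retina, averaged 8.99 ± 0.068 in knockdown NPC and 9.24 ± 0.19 in control NPC, against 7.66 ± 0.030 in knockdown ESC and 7.63 ± 0.013 in control ESC (SD, n = 3 each). It rose by 1.62 ± 0.096 in control cells (adjusted p = 1.39e-08) and by 1.34 ± 0.096 in knockdown cells (adjusted p = 8.84e-08).

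**Figure D1:**
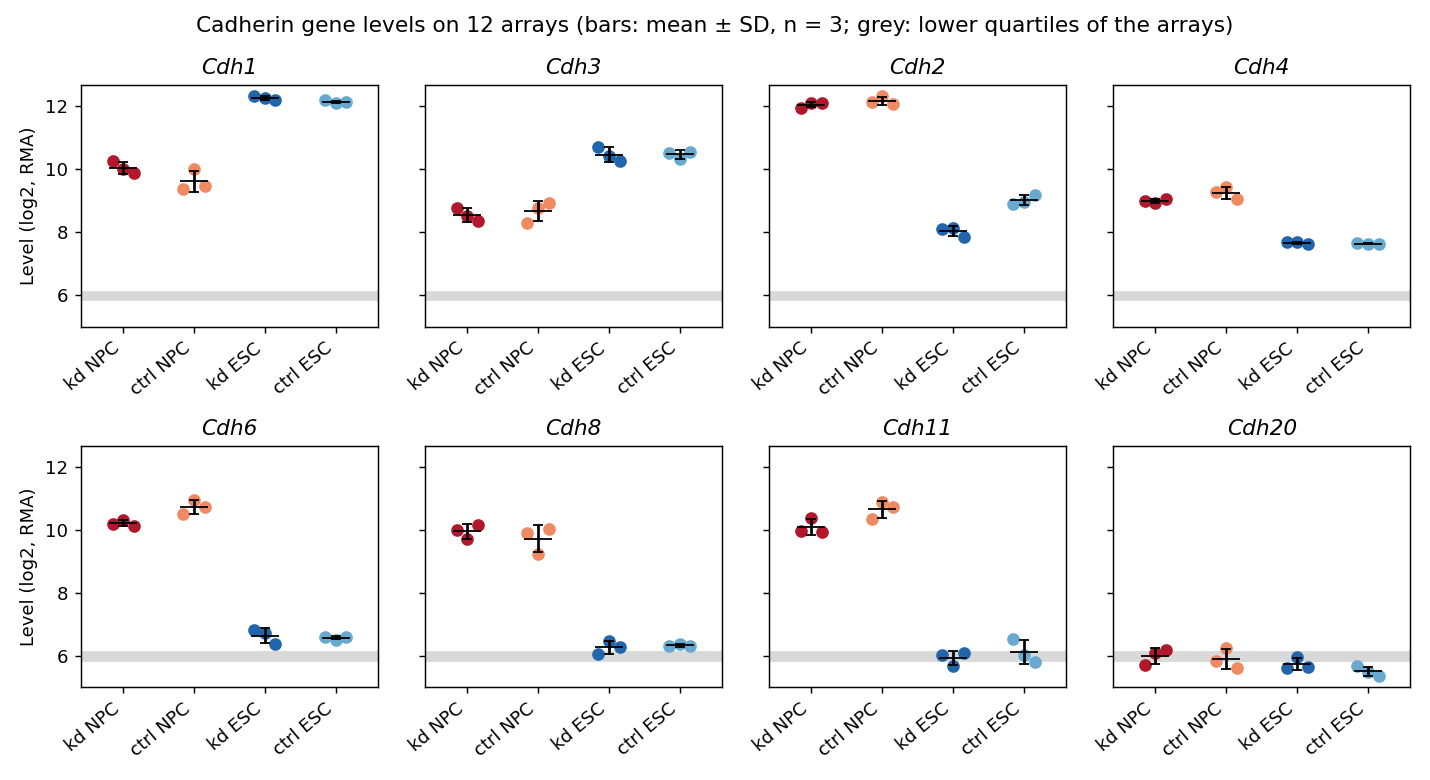
Log2 level of each of the 8 cadherins on every array (points; vertical axis, log2 intensity), with the group mean ± SD as bars and the range of the arrays' lower quartiles in grey; groups run knockdown NPC, control NPC, knockdown ESC and control ESC, 3 arrays each. Cdh1 and Cdh3 sit higher in ESC, Cdh2, Cdh4, Cdh6, Cdh8 and Cdh11 higher in NPC, and Cdh20 overlaps between the cell states.

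Among the type II genes the promoters of 3 members were available from RefSeq (GRCm38.p6): 250 bases ending just before the listed start, which is 1 of several starts for these genes. They are shown because Snail, Zeb and Twist factors act through E-boxes. Promoters of Cdh1, Cdh2, Cdh3, Cdh4 and Cdh11 were not available, and binding to the marked matches was not tested. Of the 3 genes shown, Cdh6 and Cdh8 rose in NPC and Cdh20 was not called. Capitals mark the match to CANNTG, a pattern that reads the same on both strands. The Cdh6 stretch is chr15:13173676-13173925 on the minus strand, that of Cdh8 is chr8:99416472-99416721 on the minus strand, and that of Cdh20 is chr1:104768270-104768519 on the plus strand.
Cdh6: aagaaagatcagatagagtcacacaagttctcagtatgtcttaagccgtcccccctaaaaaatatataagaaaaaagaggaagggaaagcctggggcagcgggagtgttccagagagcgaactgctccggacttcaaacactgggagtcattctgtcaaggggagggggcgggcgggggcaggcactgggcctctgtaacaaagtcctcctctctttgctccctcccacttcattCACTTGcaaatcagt
Cdh8: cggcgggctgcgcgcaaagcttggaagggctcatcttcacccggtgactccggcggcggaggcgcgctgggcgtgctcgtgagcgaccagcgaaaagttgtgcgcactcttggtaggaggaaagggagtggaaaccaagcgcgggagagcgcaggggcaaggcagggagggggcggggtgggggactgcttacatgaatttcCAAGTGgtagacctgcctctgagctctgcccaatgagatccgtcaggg
Cdh20: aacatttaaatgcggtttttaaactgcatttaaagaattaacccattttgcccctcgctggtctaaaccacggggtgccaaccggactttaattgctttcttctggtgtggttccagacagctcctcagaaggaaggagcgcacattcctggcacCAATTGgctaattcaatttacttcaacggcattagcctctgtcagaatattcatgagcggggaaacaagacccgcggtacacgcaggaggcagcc
Each holds 1 match, which starts 15 bases before the listed start in Cdh6, 48 in Cdh8 and 95 in Cdh20. A match occurs in 66.2% of 32851 promoters of this length. The narrower forms CACCTG and CAGGTG, found in 17.2% of promoters, are in 0 of these 3. The stretches differ in base composition, with 6 CG dinucleotides in Cdh6, 20 in Cdh8 and 10 in Cdh20, where the median promoter has 6.

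Cdh6, a type II cadherin of kidney and of developing brain and neural crest, read 10.19, 10.31 and 10.13 in knockdown NPC and 10.51, 10.96 and 10.73 in control NPC. In ESC it averaged 6.64 ± 0.23 with the knockdown and 6.57 ± 0.053 with the control shRNA (SD, n = 3 each). Cdh11, a cadherin of mesenchyme and of brain, read 9.96, 10.38 and 9.94 in knockdown NPC and 10.35, 10.87 and 10.74 in control NPC, against averages of 5.93 ± 0.23 in knockdown ESC and 6.13 ± 0.38 in control ESC. Cdh8, a cadherin of brain circuits, averaged 9.96 ± 0.23 in knockdown NPC and 9.72 ± 0.43 in control NPC, against 6.26 ± 0.20 in knockdown ESC and 6.33 ± 0.033 in control ESC. All 3 lay near the arrays' lower quartiles in ESC, a range in which RMA compresses differences. In control cells the NPC minus ESC change was 4.16 ± 0.13 for Cdh6 (17.9-fold, adjusted p = 4.47e-11), 4.53 ± 0.20 for Cdh11 (23.0-fold, adjusted p = 9.27e-10) and 3.40 ± 0.18 for Cdh8 (10.5-fold, adjusted p = 5.91e-09). In knockdown cells it was 3.57 ± 0.13 for Cdh6 (adjusted p = 2.07e-10), 4.17 ± 0.20 for Cdh11 (adjusted p = 2.12e-09) and 3.70 ± 0.18 for Cdh8 (adjusted p = 3.03e-09). Cdh20, another type II cadherin, read 5.72, 6.08 and 6.19 in knockdown NPC, 5.82, 6.24 and 5.62 in control NPC, 5.62, 5.96 and 5.64 in knockdown ESC and 5.66, 5.49 and 5.35 in control ESC, near the floor throughout. Its change was 0.40 ± 0.17 in control cells (adjusted p = 0.0667) and 0.26 ± 0.17 in knockdown cells (adjusted p = 0.228). Same-numbered control NPC and control ESC arrays deviated together across genes, and with the replicate block Cdh20 passed in control cells at an adjusted p of 0.0495.

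Of 10 fibroblast and mesenchyme markers, 4 were higher and 1 lower in knockdown NPC than in knockdown ESC, where 23.8% of all genes were higher. In control cells 9 of 10 were higher and 1 lower, where 23.5% of all genes were higher. Their mean level was 7.21 to 7.43 in knockdown NPC and 7.52 to 7.95 in control NPC, against 6.87 to 7.08 in knockdown ESC and 6.79 to 7.09 in control ESC. Neural crest markers lay at 8.30 to 8.54 in knockdown NPC and 8.48 to 8.74 in control NPC, against 7.63 to 7.74 in knockdown ESC and 7.87 to 8.01 in control ESC. Of these 8 genes 3 were higher and 3 lower in NPC than in ESC in knockdown cells, and 4 higher and 4 lower in control cells. The part of these cells in the cadherin changes was not tested.

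The second comparison asked what the Jarid1b shRNA did to cadherins in ESC. Cdh2 fell by 0.99 ± 0.11 on the log2 scale, being 1.99-fold lower in knockdown ESC (95% interval -1.23 to -0.76, adjusted p = 0.000939). It was called in all 12 fits that left out 1 array, at adjusted p of 0.000639 to 0.00766. The other 7 members were not called, so 1 of 8 was called, lower, where 5.21% of all genes were called, 1.84% higher and 3.37% lower. Cdh1 read slightly higher in every knockdown ESC array than in any control ESC array (change 0.12 ± 0.14, 95% interval -0.19 to 0.43, adjusted p = 0.723). Cdh1 and Cdh2 were the 2 of 8 members whose groups did not overlap, against 24.2% of all genes. Among the type I genes, Cdh3 changed by -0.0040 (95% interval -0.36 to 0.36) and Cdh4 by 0.028 (-0.18 to 0.24). Among the type II genes, the change was 0.069 for Cdh6 (-0.21 to 0.35), -0.064 for Cdh8 (-0.46 to 0.33), -0.20 for Cdh11 (-0.63 to 0.23) and 0.24 for Cdh20 (-0.12 to 0.60). Radial glia markers averaged 8.90 to 9.03 in knockdown ESC and 9.05 to 9.20 in control ESC, and neuronal markers 7.97 to 8.18 in knockdown ESC and 8.18 to 8.26 in control ESC. Of 10 radial glia genes 2 fell, Slc1a3 and Pax6, and 1 rose, Msi1. Of 10 neuronal genes 3 fell and 0 rose. The part of these genes in the Cdh2 change was not tested.

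The third comparison set knockdown NPC against control NPC. None of the 8 members was called by limma, where 1.03% of all genes were called, 0.82% higher and 0.213% lower, and 4 members had an unadjusted p under 0.05, as did 9.52% of all genes. These were Cdh1 (0.42 ± 0.14, unadjusted p = 0.0117, adjusted p = 0.277), Cdh4 (-0.25 ± 0.096, adjusted p = 0.359), Cdh6 (-0.52 ± 0.13, adjusted p = 0.0857) and Cdh11 (-0.56 ± 0.20, adjusted p = 0.303). Cdh6 was the 1 member whose groups did not overlap, against 14.2% of all genes. Its range was 10.13 to 10.31 in knockdown NPC and 10.51 to 10.96 in control NPC. Without control NPC replicate 1 the Cdh6 change was -0.63 with an adjusted p of 0.0416, and without control NPC replicate 2 that of Cdh1 was 0.61 with an adjusted p of 0.0314. Each was called in only 1 of 12 fits that left out 1 array, with adjusted p up to 0.295 for Cdh6 and 0.757 for Cdh1. Cdh2 changed by -0.12 ± 0.11 (95% interval -0.36 to 0.12, adjusted p = 0.880). The change was -0.12 for Cdh3 (-0.48 to 0.24), 0.23 for Cdh8 (-0.16 to 0.63) and 0.099 for Cdh20 (-0.26 to 0.46).

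Several marker lists differed between the same NPC groups, where 0.82% of all genes were called higher and 0.213% lower. The mean of 10 pluripotency genes was 7.15 to 7.96 in knockdown NPC and 6.64 to 7.14 in control NPC, and 2 of the 10, Esrrb and Tdgf1, rose. Endothelial markers averaged 6.69 to 7.09 in knockdown NPC and 7.47 to 8.35 in control NPC, and 4 of 10 fell. Mesenchyme markers averaged 7.21 to 7.43 in knockdown NPC and 7.52 to 7.95 in control NPC, with 0 of 10 called. Their part in the Cdh1, Cdh6 and Cdh11 values was not tested.

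The last comparison tested whether the knockdown effect differed between NPC and ESC, which is also the test of whether the NPC minus ESC step differed between knockdown and control cells. For Cdh2 the effect in NPC minus that in ESC was 0.87 ± 0.16 (95% interval 0.53 to 1.21, adjusted p = 0.0239). Cdh2 was thus the 1 of 8 members called, where 1.42% of all genes were called, 1.18% higher and 0.245% lower. This test uses the same ESC arrays as the comparison in ESC above. The targeted gene Kdm5b itself fell less in NPC than in ESC, with a difference of 0.96 ± 0.16 (adjusted p = 0.0172). The part of this unequal knockdown in the Cdh2 difference was not tested. Cdh2 lost its call in 3 of 12 fits that left out 1 array, with adjusted p of 0.0694 without knockdown NPC replicate 2, 0.0715 without knockdown ESC replicate 3 and 0.0694 without control ESC replicate 3. Cdh6 gave -0.59 ± 0.18 (adjusted p = 0.141) and Cdh1 0.31 ± 0.20 (adjusted p = 0.512), and the adjusted p of the other 5 lay between 0.348 and 0.863. The gap between the Cdh2 and Cdh1 log2 values of an array, in which only changes have a meaning, was used to describe the switch. It was larger in NPC than in ESC by 6.25 in knockdown cells and by 5.68 in control cells. With the knockdown it was lower by 1.11 in ESC and by 0.54 in NPC, and no test was run on it because it was built from members chosen with results known.

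**Figure D2:**
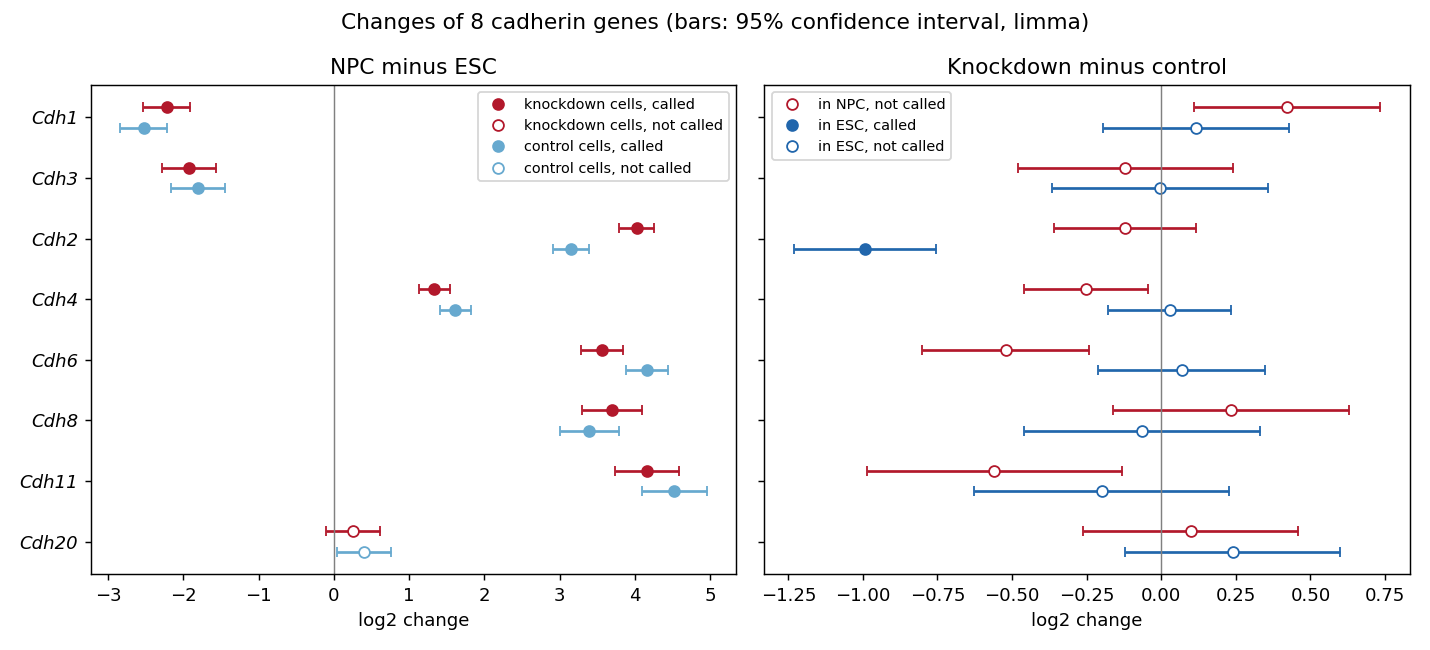
Log2 change of each cadherin with its 95% interval (horizontal axis) in the 4 comparisons between groups, with called genes filled. The NPC minus ESC changes lie far from 0 for 7 of 8 genes, and among the knockdown changes Cdh2 in ESC is called.

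Levels of each gene were also ordered over the 4 groups. Cdh2 was highest in control NPC (12.17 ± 0.12), then knockdown NPC (12.05 ± 0.091), control ESC (9.02 ± 0.15) and knockdown ESC (8.03 ± 0.16). The 2 NPC groups overlapped, and the other neighbouring groups did not. Cdh1 ran from knockdown ESC (12.26 ± 0.066) through control ESC (12.14 ± 0.037) and knockdown NPC (10.03 ± 0.19) to control NPC (9.61 ± 0.33). The 2 NPC groups overlapped, and neither the 2 ESC groups nor the 2 NPC groups differed by a called change.

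For each member whose group means spanned at least 1 log2 unit, the 3 genes with the most similar pattern were found from the root mean square difference over the 12 arrays, after centring each gene on its mean. For Cdh2 they were Cntfr, a receptor subunit for ciliary neurotrophic factor (0.143), Sox11, a transcription factor of immature neurons (0.164), and Pcdh18, a protocadherin (0.183). Cntfr averaged 12.88 in knockdown NPC, 12.92 in control NPC, 8.73 in knockdown ESC and 9.79 in control ESC. Sox11 averaged 12.08 in knockdown NPC, 12.14 in control NPC, 7.93 in knockdown ESC and 8.70 in control ESC. These genes, like Cdh2, were lower in knockdown than in control ESC, which follows from how they were picked. For Cdh1 the closest were Pfkp, a glycolytic enzyme (0.122), St14, an epithelial membrane protease (0.151), and Cd80, an immune costimulatory ligand (0.163). Cdh3 had Jak3 (0.135), Mexis (0.140) and Atp10d (0.145), and Cdh4 had BC051142 (0.101), Gnaq (0.105) and Mapk8ip1 (0.110). Cdh6 had Srrm4 (0.206), Sema6d (0.219) and Sox9 (0.243). Cdh8 had Rgs2 (0.176), Pcdh19 (0.199) and Fstl5 (0.209), and Cdh11 had Nhlh1 (0.259), Nr2f2 (0.265) and Sst (0.302). Cdh20 spanned 0.495 and was not matched.

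**Figure D3:**
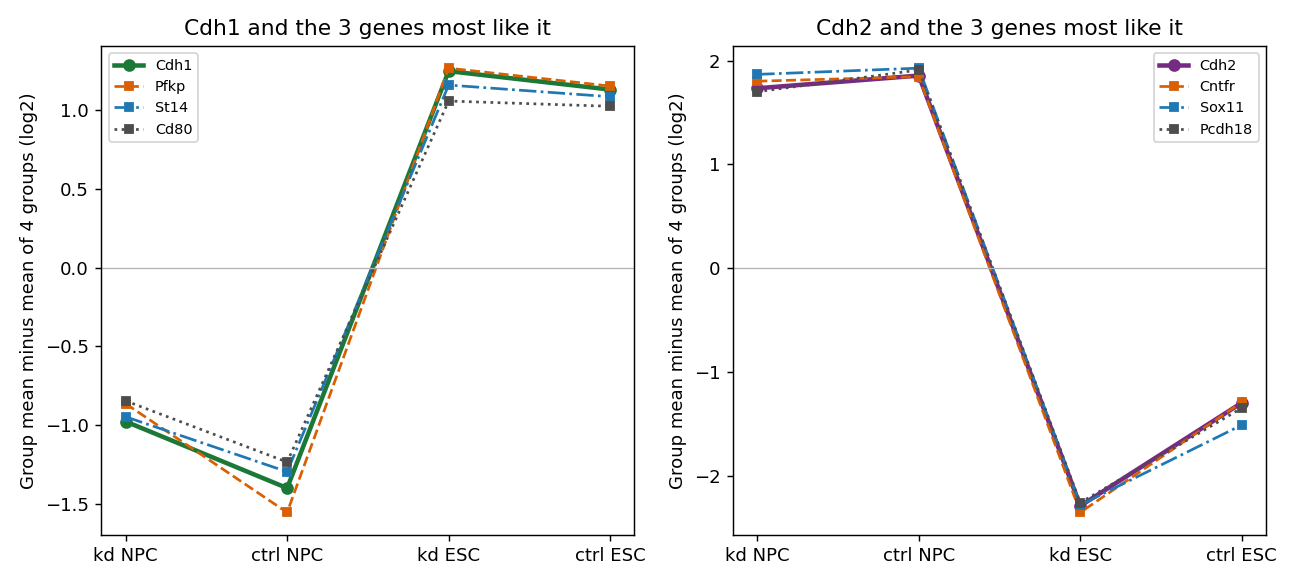
Group means of Cdh1 and Cdh2 and of the 3 genes most like each over the 12 arrays, centred on each gene's mean (vertical axis, log2), in the order knockdown NPC, control NPC, knockdown ESC and control ESC. The Cdh2 set lies lower in knockdown than in control ESC, and the Cdh1 set is high in both ESC groups.

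Genes that act with cadherins were read from lists chosen with earlier results known. Among 16 catenins and adherens junction partners, 6 were higher and 7 lower in control NPC than in control ESC, where 23.5% of all genes were higher and 25.1% lower. Ctnna2, the neural alpha-catenin, rose by 1.40 ± 0.095, Nectin3, a nectin adhesion receptor, by 0.98 ± 0.11 and Ctnnd2, a neural delta-catenin, by 0.70 ± 0.080. Jup, plakoglobin, which binds cadherin tails in adherens junctions and in desmosomes, fell by 1.70 ± 0.12 (SE). Beta-catenin (Ctnnb1), which binds the cadherin tail, changed by 0.06 ± 0.071 and was not called (adjusted p = 0.522). In knockdown cells 6 of the 16 were higher and 5 lower, where 23.8% of all genes were higher and 25% lower. The Jarid1b shRNA changed 1 of 16 in ESC, Ctnnd1 (p120-catenin, which stabilises cadherins at the membrane), by -0.43 ± 0.085 (adjusted p = 0.0138), where 5.21% of all genes were called. It changed 1 of 16 in NPC, Ctnnd2, by -0.38 ± 0.080 (adjusted p = 0.0436), where 1.03% of all genes were called. The Ctnnd1 call was lost without knockdown ESC replicate 3 or control ESC replicate 3, and the Ctnnd2 call in 11 of 12 such fits, with adjusted p up to 0.0772 and 0.168.

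Of 13 transcription factors known from epithelial to mesenchymal transition, 10 were higher and 2 lower in control NPC than in control ESC, with a median change of 1.45, where 23.5% of all genes were higher and 25.1% lower, with a median change of -0.042. Zeb2 rose by 3.84 ± 0.11, Sox9 by 3.77 ± 0.097 and Tcf4 by 1.48 ± 0.087, while Klf8 fell by 3.67 ± 0.15 (SE). Snai1, a known repressor of Cdh1, changed by -0.29 ± 0.12 and was not called (adjusted p = 0.0647), while Zeb1 rose by 1.90 ± 0.13. In knockdown cells 8 were higher and 2 lower, where 23.8% of all genes were higher and 25% lower. Of the other Snail genes, Snai3 averaged 6.86 in knockdown NPC, 6.34 in control NPC and 7.74 in knockdown ESC. Snai2 averaged 6.13 in knockdown NPC, 6.84 in control NPC and 6.11 in knockdown ESC. In ESC the shRNA changed 1 of 13, Zeb2, by -0.51 ± 0.11 (adjusted p = 0.0193), where 5.21% of all genes were called. This call was lost on leaving out single arrays, with adjusted p up to 0.082. In NPC the shRNA changed 0 of 13 by limma.

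Most epithelial regulators and junction genes on the lists were lower in control NPC, as Cdh1 was, while junction genes were more mixed in knockdown cells. Of 10 epithelial regulators, 9 were lower in control NPC than in control ESC and 0 higher, where 25.1% of all genes were lower, among them Klf4 (-2.66 ± 0.17), Grhl3 (-2.64 ± 0.20) and Elf3 (-2.53 ± 0.19). Of 21 measured epithelial junction genes, 13 were lower and 1 higher, with St14 at -2.38 ± 0.13 and Dsg2, a desmosomal cadherin, at -2.40 ± 0.19. In knockdown cells 9 regulators were lower, and 11 junction genes were lower and 7 higher, where 25% of all genes were lower and 23.8% higher. Against the direction of Cdh1, Krt18 averaged 10.40 in knockdown NPC and 8.21 in knockdown ESC, and Krt19 8.88 and 7.63. In ESC the shRNA lowered 4 of 10 regulators, with Grhl2 at -1.37 ± 0.26 (adjusted p = 0.011), and 7 of 21 junction genes, with Cldn6, a tight junction claudin, at -0.96 ± 0.16 (adjusted p = 0.00747) and Epcam, an epithelial adhesion protein, at -0.75 ± 0.18 (adjusted p = 0.0346), where 3.37% of all genes were lower. These counts rested on single arrays: without control ESC replicate 3 they were 0 regulators and 1 junction gene, and without knockdown ESC replicate 3 also 0 and 1. Cldn6 kept its call in all 12 fits. Cdh1 itself was not called in that comparison. In NPC the shRNA raised 2 of 10 regulators, Elf3 by 0.94 ± 0.19 and Ovol1 by 0.69 ± 0.14, and changed 0 of 21 junction genes by limma, where 1.03% of all genes were called. The Elf3 call was lost in 8 of 12 such fits and the Ovol1 call in 9.

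Among 14 other classical and related cadherins, 5 were higher and 1 lower in control NPC than in control ESC, a share called below the 48.6% of all genes. Cdh5, the endothelial cadherin, rose by 2.62 ± 0.29, Cdh10 by 1.92 ± 0.16 and Cdh24 by 1.10 ± 0.17, and Cdh9 fell to 5.38 in control NPC, against 6.87 in control ESC (adjusted p = 0.000238). In knockdown cells 3 were higher and 0 lower by limma, a share called below the 48.8% of all genes. In ESC the shRNA lowered Cdh9 by 1.55 ± 0.26 (adjusted p = 0.00628) and Cdh10 by 0.70 ± 0.16 (adjusted p = 0.0285), both type II cadherins with knockdown values near the floor. The Cdh10 call was lost without knockdown ESC replicate 2 or 3, or control ESC replicate 2 or 3, with adjusted p up to 0.15. Cdh5 was lower in knockdown than in control NPC by 1.98 (-1.98 ± 0.29, adjusted p = 0.00558), and is itself 1 of the 4 endothelial markers that fell in NPC. Mesenchymal genes did not move 1 way: of 14, 6 were higher and 4 lower in control NPC than in control ESC, where 23.5% of all genes were higher and 25.1% lower, with Vim at 0.77 ± 0.078 and Fn1, fibronectin, at -0.96 ± 0.096.

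**Figure D4:**
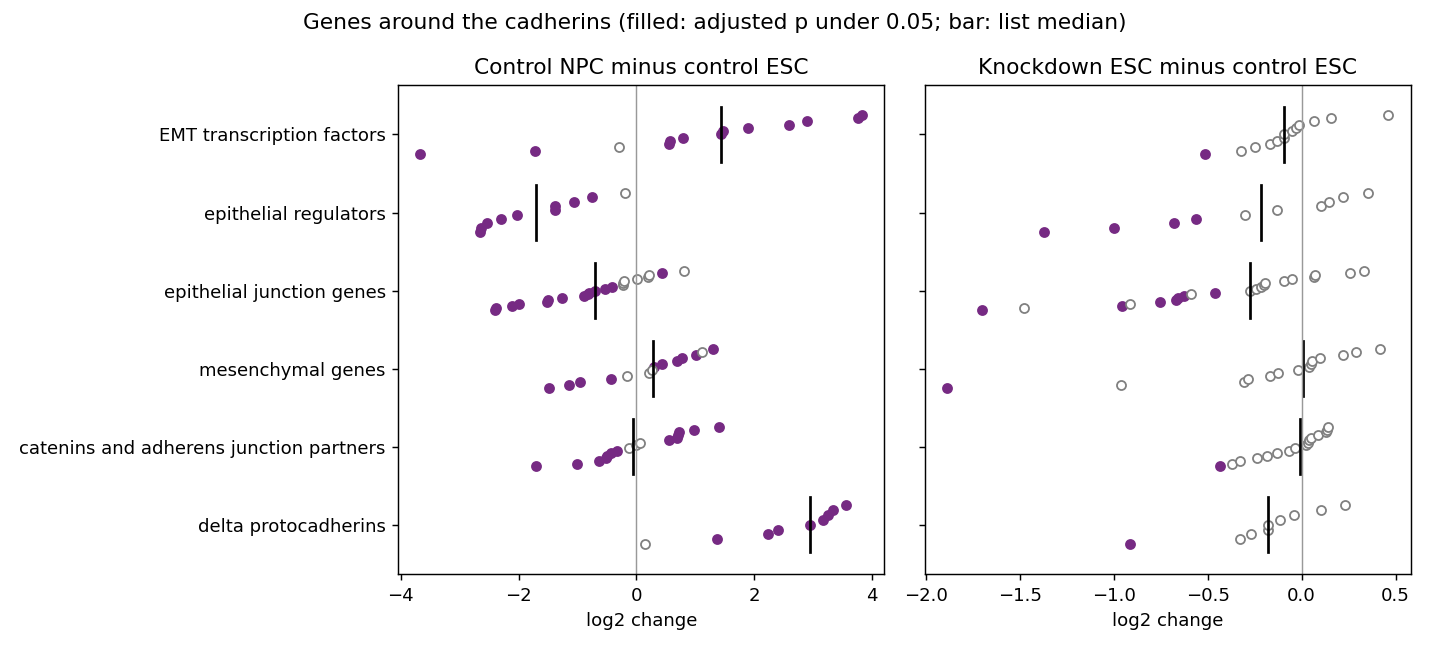
Changes of the genes in 6 of the lists (horizontal axis, log2 change; each point 1 gene, called genes filled, bar at the list median) for control NPC minus control ESC and for knockdown ESC minus control ESC. In the first, all epithelial regulators lie left of 0 and all delta protocadherins right of it.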

How the data were processed

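RNA of 12 arrays (MoGene 1.0 ST; 3 in each of 4 groups) was measured. The deposited values are log2 intensities of probe sets on each array; affy and RMA were used by the authors to make them, per the submitters' processing notes, and limma was also used, with versions not given in the sources used here. In RMA, background is corrected, arrays are quantile-normalized and probes are summarized; differences near the floor are compressed. Detection calls are not used here, and precision is limited by the number of arrays.

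A single gene symbol was listed for 18786 of 21212 probe sets, several for 6 and none for 2420; the probe set with the highest mean was used per gene, giving 18784 genes. Using limma 3.58.1 (R 4.3.3), 1 mean per group was estimated over the 12 arrays (8 residual and 4.81 prior degrees of freedom). P-values are two-sided and adjusted by Benjamini-Hochberg over 18784 genes, and "called", "rose" and "fell" mean an adjusted p under 0.05. The steps were tested on simulated data. Members and lists were chosen with earlier results of these data known. Named genes were the 8 members, Kdm5b, the 3 most alike genes of each member and up to 4 genes with the smallest p per list. Ctnnb1, Snai1, Snai2, Snai3, Zeb1, Ctnnd1, Epcam, Krt18, Krt19, Pax6, Slc1a3, Msi1, Esrrb and Tdgf1 were chosen after their values were seen. The 8 lists around cadherins and 10 marker lists held 201 entries, 197 measured.

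Same-numbered control NPC and ESC arrays deviated from their group means together (correlations 0.266, 0.286 and 0.334). The main fits had no replicate block in any comparison. Same numbers were treated as pairs only in the alternative runs with a block, a choice read from the data. Other comparisons did not have all 3 pairs above 0.1. Results were recomputed with the replicate block, without genes of low values, with a trended robust prior, with array weights, after quantile normalization or median centring, with a gene's probe sets averaged, on the compared arrays alone and with each array left out.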

Additional observations from a re-analysis of the deposited data

Results flagged for a closer look

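In 6 genes the knockdown effect differed between NPC and ESC by the interaction test, among the 8 cadherins and the lists around them. These were 1 of the 8 cadherins and 5 of 110 measured list genes, where 1.42% of all genes were called. The values are the effect in NPC minus the effect in ESC, on the log2 scale, with limma's SE and adjusted p over all genes. Cdh2 gave 0.87 ± 0.16 (adjusted p = 0.0239). Among epithelial genes Prss8, a membrane protease, gave 0.93 ± 0.17 (adjusted p = 0.0239), Cldn6 1.15 ± 0.23 (adjusted p = 0.0367), Spint2, a protease inhibitor, 0.60 ± 0.13 (adjusted p = 0.0416), and Ovol1, an epithelial transcription factor, 1.25 ± 0.20 (adjusted p = 0.0172). Cdh5 gave -2.05 ± 0.41 (adjusted p = 0.0370). Cdh2 lost its call without knockdown NPC replicate 2, knockdown ESC replicate 3 or control ESC replicate 3, and each of the other 5 lost its call without at least 1 array. Kdm5b, the targeted gene, is not on these lists and gave 0.96 ± 0.16 (adjusted p = 0.0172). Its part in these differences was not tested. Groups of 3 arrays were too small to test single arrays as outliers.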

How the results depend on the processing

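The 7 NPC minus ESC member calls in control and in knockdown cells, and the Cdh2 call in ESC, kept direction and side of the threshold under every alternative run, with adjusted p for Cdh2 in ESC of 0.000111 to 0.0118. Averaging a gene's probe sets could not move the log2 changes of members, since each has 1 probe set. Counts of genes were less stable. In ESC the 979 genes called became 2887 with array weights, 500 with the compared arrays alone and 193 to 1536 on leaving out single arrays (lowest without control ESC replicate 3, highest without control ESC replicate 1). In NPC the 194 became 29 with the compared arrays alone and 83 to 247 on leaving out arrays. For the difference of the effects the 267 became 152 with the replicate block, 955 with array weights and 35 to 546 on leaving out arrays.

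On leaving out arrays, members called ranged from 0 to 1 in the difference of the effects and from 0 to 1 for knockdown in NPC. The Cdh2 difference ranged from 0.78 to 0.94, and the Cdh1 change in NPC from 0.30 to 0.61. The replicate block changed the call of Cdh20 in control cells (adjusted p = 0.0495, or 0.0420 on the 6 control arrays alone) and of no other member. Cdh20 also passed in control cells with array weights (adjusted p = 0.0441) and quantile normalization (0.0129), and in knockdown cells with both (0.0464 and 0.0375).

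Some uncalled changes turned sign. For Cdh3 with the knockdown in ESC the value was 0.0078 with median centring, 0.024 with quantile normalization and -0.13 to 0.11 on leaving out arrays. In ESC, leaving out arrays gave -0.023 to 0.20 for Cdh6, -0.16 to 0.038 for Cdh8 and -0.36 to 0.010 for Cdh11. In NPC it gave -0.30 to 0.0070 for Cdh3, -0.0092 to 0.38 for Cdh8 and -0.037 to 0.27 for Cdh20. For the difference of the effects it gave -0.29 to 0.011 for Cdh3 and -0.28 to 0.031 for Cdh20. The cause was not tested.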

Other observations

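Delta protocadherins, a group of homophilic adhesion proteins outside the classical family, were mostly higher in NPC. Of 9 measured, 9 rose in knockdown NPC over knockdown ESC, with a median change of 2.85, where 23.8% of all genes rose. In control cells 8 of 9 rose, with a median of 2.95, where 23.5% of all genes rose. Pcdh1 was not called there (6.74 in control NPC and 6.59 in control ESC, adjusted p = 0.382). Pcdh10 averaged 9.29 in control NPC and 5.73 in control ESC (3.56 ± 0.084), and Pcdh19 averaged 9.88 in control NPC and 6.54 in control ESC (3.34 ± 0.15, SE). In ESC the shRNA lowered 1 of 9, Pcdh18, by 0.91 ± 0.15 (adjusted p = 0.00552), which kept its call without any single array, and in NPC it changed 0 of 9 by limma.

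Among 13 measured genes of cadherin cleavage and turnover, 7 were higher and 2 lower in control NPC than in control ESC, where 23.5% of all genes were higher and 25.1% lower. Adam10, a protease that sheds the outer part of E- and N-cadherin, rose by 1.75 ± 0.11 and Pcsk6, a proprotein convertase, fell by 1.11 ± 0.15. In knockdown ESC Adam10 was higher than in control ESC by 0.53 ± 0.11 (adjusted p = 0.0153, up to 0.0719 on leaving out single arrays).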
